A study of Mus musculus with 4 samples.

Results

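The 39 genes described here are markers and regulators of blood vessels. Of these, 37 were listed for the endothelium, the cell layer that lines every vessel, or for ligands of its receptors. *Rgs5* and *Pdgfrb* were listed as pericyte genes. Pooled tissue does not show which cells the signal of a gene came from. The 39 were taken as a list of gene symbols, and all 39 had a probe set that the platform annotation assigns to a single gene, of 18193 genes in all. The 4 groups were each measured on 1 Affymetrix mouse genome array. Wild-type embryos and Hand2NC mutants (Hand2 CAT/+; Wnt1-Cre) were compared at E11.5, with whole-body given as the tissue, and at E12.5, with the head. All embryos were of a mixed C57BL/6J x ICR background. In Hand2NC embryos, Cre driven by *Wnt1* removes a stop cassette so that the ubiquitous CAG promoter expresses *Hand2* in the neural crest and its descendants, and the control embryos are labelled wild-type. RNA was pooled before hybridisation. There are thus no replicates, no p-value can be given, and every difference below is one between single arrays.

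New vessels form when endothelial cells respond to VEGF through the receptor Kdr, whereas Flt1 binds the same ligand and limits its action. Angiopoietins bind the receptor Tek, with Tie1 as a partner, and through it Angpt1 steadies the contact between the endothelium and the pericytes around it. ETS factors (Erg, Fli1, Ets1) and SoxF factors (Sox7, Sox17, Sox18) drive the genes that give endothelial cells their identity. Endothelial cells arise from mesoderm, whereas pericytes and smooth muscle of the face and forebrain vessels come largely from the neural crest, the lineage in which *Wnt1-Cre* acts. A change in the signal of a vessel gene in pooled tissue can come from fewer vessel cells or from less RNA per cell, and the arrays cannot tell these apart.

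The signals are MAS5 intensities, scaled here to a trimmed mean of 500 on each array. A gene was kept in a comparison when its signal on the brighter of the 2 arrays reached the median of that array, which was 97.2 and 101 in wild-type and Hand2NC at E11.5 and 106 and 102 at E12.5. Of 8 defining endothelial markers (*Pecam1*, *Cdh5*, *Kdr*, *Tek*, *Tie1*, *Emcn*, *Esam* and *Cldn5*), 7 lay at or above the median on all 4 arrays, *Tie1* being the exception. A probe set of *Hand2* differed strongly, with signals of 67.1 and 314 in wild-type and Hand2NC at E11.5 and of 33.4 and 706 at E12.5. The brightest *Hand2* probe set had signals of 1214 and 1244 at E11.5, a log2 difference of 0.04, and of 592 and 839 at E12.5, one of 0.50. The Hand2NC array at E12.5 lacked the signal of Y-linked genes, with *Kdm5d* at 677 in the wild-type and 8.72 in the mutant, against 578 and 535 at E11.5. The legend for the E11.5 arrays in the study speaks of heads, but liver and heart muscle genes were bright on them. *Alb*, for serum albumin, had signals of 9009.5 and 8530 at E11.5 and of 29.1 and 33.7 at E12.5.

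Of the 39 genes, 36 lay above the filter in all 4 comparisons made. *Rasip1*, which encodes a regulator of Ras-family signalling needed for vessel lumens, was near the filter, with signals of 102 and 90.2 in wild-type and Hand2NC at E11.5 and of 91.9 and 84.5 at E12.5, and it entered only the 2 comparisons that hold the E11.5 wild-type array. *Tie1* had signals of 86.3 and 80.8 at E11.5 and of 94.9 and 99.2 at E12.5, below the median of each array. *Gja5*, which encodes the arterial connexin Cx40, had signals between 1.37 and 4.67 on the 4 arrays, and no fold is given for it. Signals of different probe sets are not comparable with each other, and only differences between arrays are used below.

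**Figure D1:**
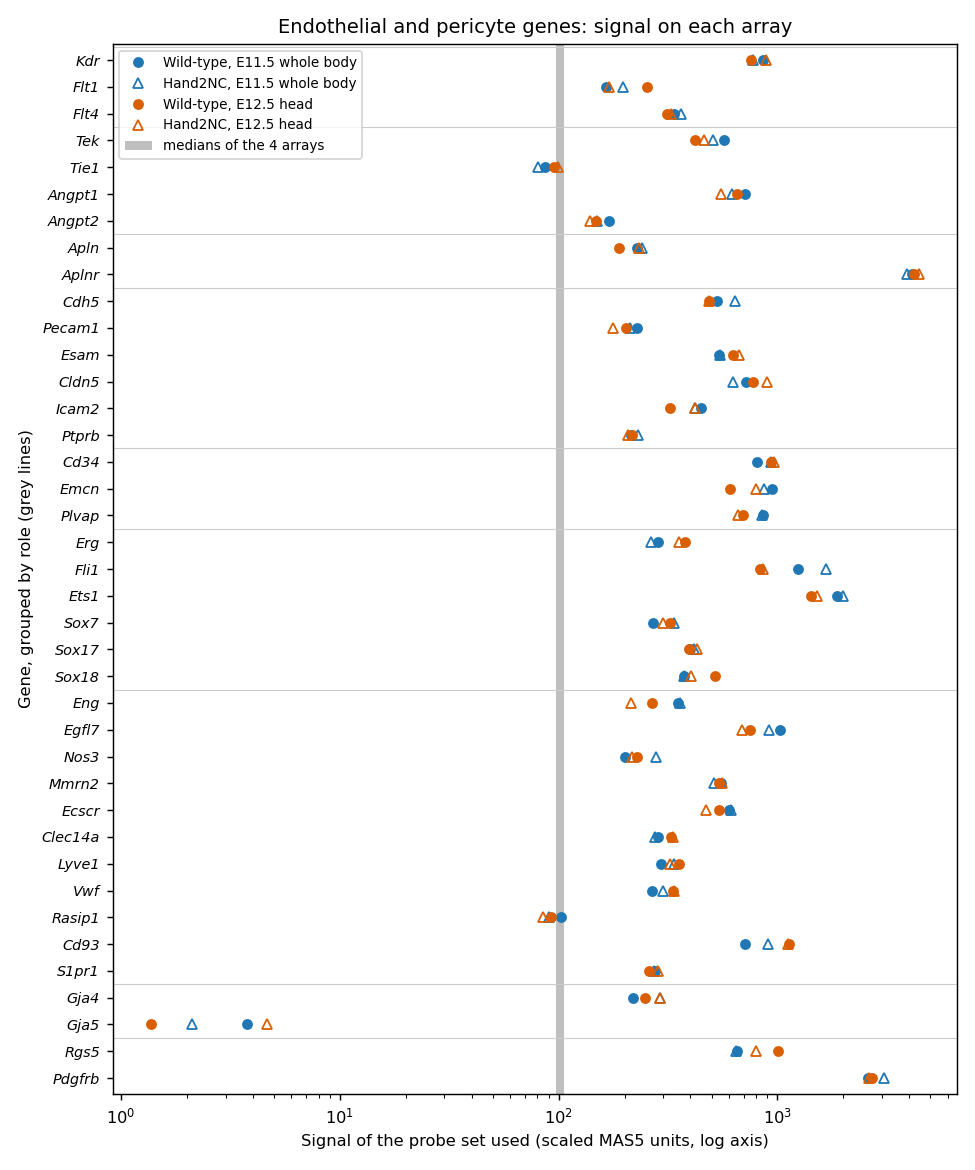
Signal of each of the 39 genes (log axis, scaled MAS5 units) on the 4 arrays, grouped by role; circles are wild-type and triangles Hand2NC, blue is E11.5 whole body and orange E12.5 head, and the grey band spans the medians of the 4 arrays. The symbols of most genes lie close together, *Tie1* and *Rasip1* sit at the band, and *Gja5* lies far below it at 1.37 to 4.67.

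The first comparison asks whether vessel genes differed between Hand2NC and wild-type embryos at E11.5. None of the 37 genes above the filter differed by 2-fold, and 0.446% of all 11883 genes above it did, so that few or no genes of a list this size would be past that cutoff at the background rate. The median log2 difference, Hand2NC minus wild-type, was 0.01 for the list and -0.01 for all genes. The median size of the difference was 0.13 on the log2 scale for the list and 0.12 for all genes. At a lower cutoff of 1.25-fold, chosen after the values were seen, 4 genes were higher in Hand2NC and 0 were lower. This is 10.8% of the list, against 12.4% of all genes, of which 6.61% were higher and 5.75% lower. A further gauge is the local spread, the robust standard deviation of the log2 difference among the 500 genes nearest in signal, which holds measurement error and real change together. It was exceeded by 32.4% of the list and by 33.3% of all genes, so the vessel genes varied about as much between the genotypes as other genes of like signal.

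The 4 genes past 1.25-fold at E11.5 were *Nos3*, *Fli1*, *Gja4* and *Cd93*. *Nos3*, which encodes the endothelial nitric oxide synthase, had signals of 202 in the wild-type and 277 in Hand2NC, a log2 difference of 0.46 at a local spread of 0.27. *Fli1*, the ETS factor, had signals of 1236 and 1660, a log2 difference of 0.43 at a local spread of 0.15. The other *Fli1* probe set gave -0.04, so the difference was seen by 1 of 2 probe sets. *Gja4*, which encodes the connexin Cx37 of arterial endothelium, had signals of 218 and 292, a log2 difference of 0.42. *Cd93*, for an endothelial surface glycoprotein, had signals of 710 and 909, a log2 difference of 0.36, and 0.16 by its other bright probe set, while 3 further probe sets were dim. With median centring *Cd93* was no longer past 1.25-fold. *Sox7*, at signals of 269.6 and 336, lay just under the cutoff with 0.32. The largest negative differences were smaller by the probe sets used. *Cldn5*, the tight junction claudin of endothelium, had signals of 722 and 629, a log2 difference of -0.20 at a local spread of 0.15, and the ligand genes *Angpt1*, at 708 and 623, and *Angpt2*, at 169 and 149, had -0.18 each. *Rasip1* also had -0.18, at a local spread of 0.50, and *Egfl7*, with signals of 1032 and 912, had -0.18.

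In the E12.5 heads, again none of the 36 genes above the filter differed by 2-fold between the genotypes, as against 0.398% of all 11814 genes. The median log2 difference was 0.01 for the list and 0.00 for all genes. Past 1.25-fold, 2 genes were higher and 4 lower in Hand2NC, 16.7% of the list against 11.7% of all genes, of which 5.1% were higher and 6.64% lower. When each array was centred on its median, the split was 3 higher and 1 lower, and with quantile normalization it was 3 and 3, so it depends on the scaling. With median centring *Flt1* was the only lower gene, and *Sox18*, *Rgs5* and *Eng* were no longer past the cutoff. With quantile normalization *Eng* was not past it. *Apln* was past it as higher under both. The local spread was exceeded by 30.6% of the list and 33.1% of all genes. On the same pair of arrays the 7 neuron genes examined were all lower in Hand2NC, with a median of -0.13. Other cell types were mixed or higher. Of 6 red blood cell genes 2 were higher and 4 lower, with a median of -0.09. Of 7 genes of macrophages and other blood cells 3 were higher and 4 lower, with a median of -0.16. Head mesenchyme had 1 higher and 4 lower, liver had 1 each way, and all 3 heart muscle genes were higher, with a median of 0.04. Of all 11814 genes, 6018 were higher and 5796 lower. The part of these cell types in the values of the vessel genes was not tested.

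*Flt1*, the decoy receptor for VEGF, had the largest difference of the list in the heads. Its signal was 253 in the wild-type and 170 in Hand2NC, a log2 difference of -0.58 at a local spread of 0.25, whereas at E11.5 it was 164 and 197, a log2 difference of 0.27. The wild-type head array thus stood above the other 3. Another probe set of *Flt1* had -0.32 at E12.5 and 0.51 at E11.5, but the third had 0.11 and 0.08. The main VEGF receptor *Kdr* had signals of 862 and 776 at E11.5 and of 755 and 889 at E12.5, log2 differences of -0.15 and 0.23. *Flt4*, the receptor for VEGF-C on lymphatic and early vessels, had 0.07 and, at E11.5, 0.10.

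Of the genes lower in Hand2NC heads, *Sox18* came next, with signals of 517 in wild-type and 402 in Hand2NC heads, a log2 difference of -0.36, and 372 and 375 at E11.5. *Rgs5*, the pericyte regulator of G-protein signalling, had signals of 1006 and 799, a log2 difference of -0.33 at a local spread of 0.15. At E11.5 its signals were 652 and 645. Another *Rgs5* probe set above the filter had -0.15 in the heads. *Pdgfrb*, the receptor through which pericytes are recruited, had 2717 and 2610 in the heads, a log2 difference of -0.06, and 2587 and 3083 at E11.5, one of 0.25. Its second probe set had signals of 330 and 251 in the heads, a log2 difference of -0.39, and one of 0.21 at E11.5. These 2 pericyte genes thus had lower signals in Hand2NC heads by each probe set above the filter, by amounts that depended on the probe set. Of 12 further pericyte and smooth muscle genes above the filter, 7 were higher and 5 lower in Hand2NC heads. Those higher included *Kcnj8* at 0.51, *Abcc9* at 0.16 and *Cspg4* at 0.16. Those lower included *Des* at -0.51, *Foxf2* at -0.22 and *Tbx18* at -0.13. *Eng*, which encodes the TGF-beta co-receptor endoglin, had signals of 267 and 213, a log2 difference of -0.33, but a second probe set had -0.05.

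The genes higher in Hand2NC heads were *Emcn* and *Icam2*. *Emcn*, for the sialomucin endomucin of veins and capillaries, had signals of 609 and 802, a log2 difference of 0.40 at a local spread of 0.14. At E11.5 it had 948 and 866, so the wild-type head array was the low one. *Icam2*, for an endothelial adhesion molecule, had signals of 323 and 422 in the heads, a log2 difference of 0.39, and 449 and 419 at E11.5. *Apln*, the apelin ligand gene on the X chromosome, had 188 and 234, a log2 difference of 0.31, on arrays that also differ in Y-linked signal. Its receptor gene *Aplnr* had 4218 and 4439, one of 0.07, and 0.26 by its second probe set. At E11.5 *Aplnr* had -0.08, and its second probe set had 397 and 295, a log2 difference of -0.43.

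None of the 36 genes was past 1.25-fold between the genotypes at both stages, against 2.8% of 11449 genes. At 1 of the stages 10 of the 36 were, a larger share than the 16.2% of all genes. Of 37 genes above the filter in any of the 4 comparisons, 18 were past the cutoff in none, against 42.9% of 12248 genes. The sign of the difference was the same at both stages for 17 genes and opposite for 19, and it was the same for 47.6% of all genes. *Angpt1* was lower in Hand2NC at both, with signals of 708 and 623 at E11.5 and of 652 and 555 at E12.5, log2 differences of -0.18 and -0.23 that compare with local spreads of 0.16 and 0.16. *Pecam1*, the gene of the junction molecule CD31, had -0.11 and -0.21. *Gja4* was higher at both, with 0.42 and 0.22. Probe sets of the same gene often disagreed on differences of this size. Among other probe sets above the filter, 12 of 21 had the sign of the probe set used at E11.5 and 8 of 18 at E12.5.

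**Figure D2:**
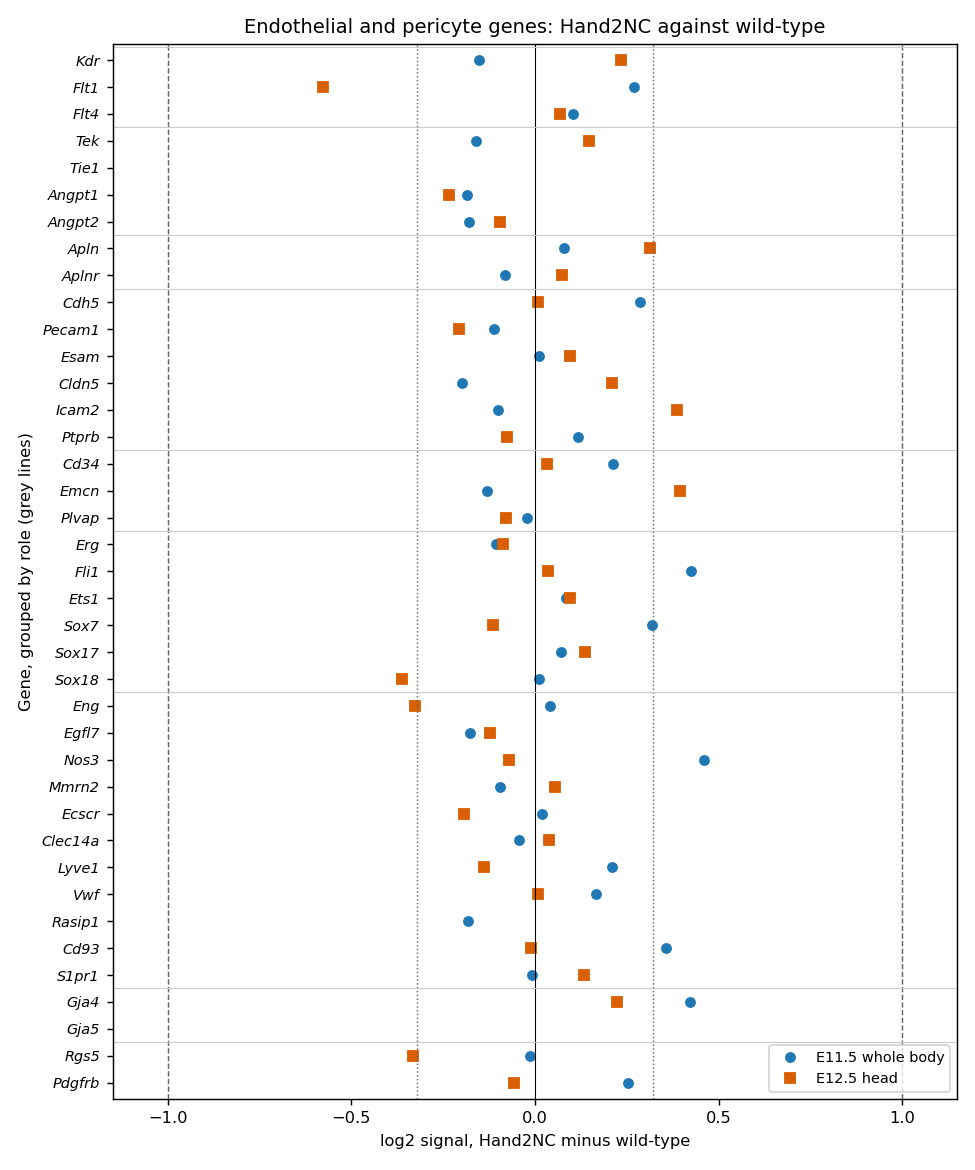
Log2 signal of Hand2NC minus wild-type for each gene above the filter, at E11.5 (blue circles) and at E12.5 (orange squares); dotted lines mark 1.25-fold and dashed lines 2-fold. All points lie between the dashed lines, the farthest being *Flt1* at -0.58 in the heads and *Nos3* at 0.46 at E11.5, and no gene has both points outside the same dotted line.

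The other genes of junctions, adhesion and the endothelial surface were within 1.25-fold between the genotypes by the probe sets used. *Cdh5*, the gene of VE-cadherin, had signals of 527 and 643 at E11.5 and of 486 and 489 at E12.5, log2 differences of 0.29 and 0.01. *Esam* had 0.01 and 0.10, and *Ptprb*, the phosphatase that acts on Tek and VE-cadherin, had 0.12 and -0.08. *Cd34*, a sialomucin also found on blood progenitors, had 0.21 and 0.03. *Plvap*, which forms the diaphragms of fenestrae and caveolae, had -0.02 and -0.08. *Lyve1*, a hyaluronan receptor of lymphatic and early endothelium and of some macrophages, had 0.21 and -0.14. *Mmrn2* had -0.10 and 0.05, *Clec14a* -0.04 and 0.04, and *S1pr1*, a receptor for a sphingolipid, -0.01 and 0.13. *Vwf* had 0.17 and 0.01, and *Ecscr* 0.02 and -0.19. Other probe sets of these genes gave larger values. A probe set of *Mmrn2* had 0.58 and -0.51, with the opposite sign to the probe set used at both stages, 1 of *Clec14a* had 0.83 at E11.5, and 1 of *Lyve1* had 0.11 and -0.63.

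The second comparison sets E12.5 heads against E11.5 whole bodies within each genotype. Stage and tissue change together here and cannot be told apart. The comparison in wild-type embryos and that in Hand2NC embryos share no array. Again none of the vessel genes above the filter reached 2-fold in either genotype, while 7.07% of 12059 genes did in the wild-type and 5.11% of 11990 genes in Hand2NC. Past 1.25-fold in the wild-type, 6 were higher and 7 lower in the head, 35.1% of 37 genes against 42.7% of all genes, of which 24.2% were higher and 18.4% lower. In Hand2NC 2 were higher and 8 lower, 27.8% of 36 genes against 36.6% of all genes, of which 21.8% were higher and 14.7% lower. With median centring, or with quantile normalization, the wild-type split was 4 higher and 9 lower and that in Hand2NC was unchanged. The median log2 difference of the list was -0.03 in the wild-type and -0.09 in Hand2NC, against 0.03 and 0.04 for all genes, and the median size was 0.20 and 0.19 against 0.27 and 0.23. The local spread was exceeded by 10 of 37 genes in the wild-type and 9 of 36 in Hand2NC, against 33.5% and 33.3% of all genes.

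Genes of heart muscle, liver, red blood cells and neurons shifted far more between these tissues, and those of macrophages and head mesenchyme did not. All 8 heart muscle genes above the filter in the wild-type were lower in the head, 7 of them past 2-fold, with a median of -3.86. Of 6 liver genes 5 were past 2-fold lower, with a median of -6.23, and *Ttr*, also made by the choroid plexus, was higher at 0.94. Of 7 red blood cell genes 5 were past 2-fold lower and all were lower, with a median of -1.20 in the wild-type and -1.45 in Hand2NC. The summed signal of the red blood cell genes with a probe set was 87576 and 79924 in wild-type and Hand2NC at E11.5 and 57217 and 53771 at E12.5. This sum is weighted to the bright globin probe sets and is not a measure of red blood cell content. In the wild-type *Hbb-bh1* went from 25003 to 8056 and *Hbb-y* from 31025 to 30503. Of 7 neuron genes 5 were past 2-fold higher in the wild-type head, with a median of 1.06. Genes of macrophages and other blood cells had a median of -0.06 in the wild-type and -0.20 in Hand2NC, and those of head mesenchyme 0.07 and -0.19. The part of these cell types in the values of the vessel genes was not tested.

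**Figure D3:**
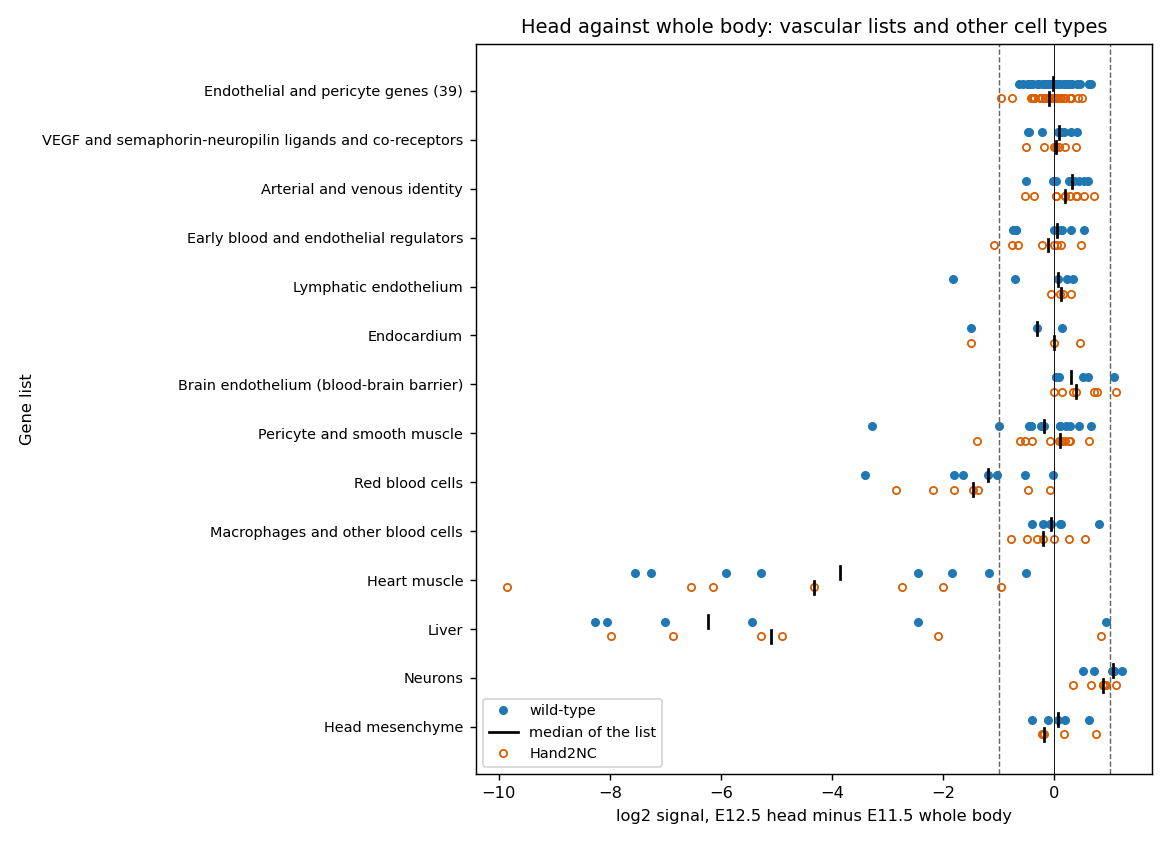
Log2 signal of E12.5 head minus E11.5 whole body, 1 point per gene above the filter, for the 39 genes, for 7 further vascular lists and for 6 lists of other cell types; blue filled points are wild-type, orange open points Hand2NC, black bars the medians and dashed lines 2-fold. The 39 genes stay between the dashed lines, whereas heart muscle and liver genes reach below -5 and neuron genes have medians of 1.06 and 0.89.

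Of 36 genes above the filter in both genotypes, 5 were past 1.25-fold the same way in both, 13.9% against 24.4% of 11801 genes. These were *Erg*, which was higher in the head (15.2% of all genes were), and *Fli1*, *Ets1*, *Egfl7* and *Eng*, which were lower (9.19% of all genes). Past 2-fold the same way there were 0, against 3.64% of all genes. No gene of the list was past 1.25-fold in opposite directions. The sign was the same in both genotypes for 24 of the 36, and for 78.3% of all genes.

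The 3 ETS factor genes did not all differ the same way between head and whole body. *Fli1* had the largest difference of the list in Hand2NC, whereas *Cd93*, *Emcn*, *Flt1* and *Rgs5* exceeded it in the wild-type. Its signal went from 1236 at E11.5 to 834 at E12.5 in the wild-type, a log2 difference of -0.57 at a local spread of 0.35, and from 1660 to 855 in Hand2NC, one of -0.96 at a local spread of 0.33. Its second probe set had -0.29 and -0.27. *Ets1*, which is also expressed in the neural crest, had signals of 1874 and 1988 at E11.5 and of 1417 and 1514 at E12.5, log2 differences of -0.40 and -0.39, and the head arrays lay below both whole-body arrays. A second bright probe set of *Ets1* had -0.21 and -0.52. *Fli1* and *Ets1* are neighbours on mouse chromosome 9, with 0 protein-coding genes between them in the RefSeq annotation. *Erg* had signals of 283 and 263 at E11.5 and of 377 and 355 at E12.5, log2 differences of 0.41 and 0.43, so that both head arrays lay above both whole-body arrays. With median centring or quantile normalization *Erg* stayed past 1.25-fold in Hand2NC but not in the wild-type. The SoxF genes were less even. *Sox18* had 0.47 in the wild-type and 0.10 in Hand2NC, *Sox7* had 0.26 and -0.17, and *Sox17*, also a gene of the endoderm, had -0.02 and 0.05.

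*Egfl7*, which encodes a matrix protein secreted by endothelium, had signals of 1032 and 912 at E11.5 and of 747 and 686 at E12.5, log2 differences of -0.47 in the wild-type and -0.41 in Hand2NC. Its other 3 probe sets also had lower signals in the head, by -0.21 to -0.45 in the wild-type and by -0.04 to -0.61 in Hand2NC. *Eng* had 351 and 360.4 at E11.5 and 267 and 213 at E12.5, log2 differences of -0.39 and -0.76, but its second probe set had 0.09 and 0.07. The direction of *Eng* therefore rests on the probe set. *Plvap* had signals of 861 and 848 at E11.5 and of 698 and 661 at E12.5, and both head arrays were the lower ones, at -0.30 and -0.36. *Tek* had 569 and 509 at E11.5 and 419 and 464 at E12.5, log2 differences of -0.44 and -0.13. *Emcn* had -0.64 in the wild-type and -0.11 in Hand2NC, and *Icam2* had -0.48 and 0.01, and the wild-type head array was the lowest of the 4 for both.

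*Cd93* had signals of 710 and 909 at E11.5 and of 1124 and 1115 at E12.5, log2 differences of 0.66 and 0.30, and its other bright probe set had 0.27 and 0.27. *Rgs5* had 0.63 in the wild-type and 0.31 in Hand2NC, while another *Rgs5* probe set above the filter had -0.15 and -0.24, so its direction was not shared by its probe sets. *Pdgfrb* had 0.07 and -0.24, and 0.14 and -0.46 by its second probe set. *Cldn5*, which seals the vessels of the brain, had signals of 722 and 629 at E11.5 and of 773 and 893 at E12.5, log2 differences of 0.10 and 0.51. *Esam* had 0.20 and 0.29, *Clec14a* 0.20 and 0.28, and *Vwf*, the clotting factor stored in endothelium, 0.33 and 0.17. *Flt1* had 0.63 and -0.22, *Nos3* 0.17 and -0.36, *Cdh5* -0.12 and -0.40, and *Ecscr* -0.15 and -0.37. Over the list, 13 of 20 other probe sets above the filter had the sign of the probe set used in the wild-type and 12 of 19 in Hand2NC.

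**Figure D4:**
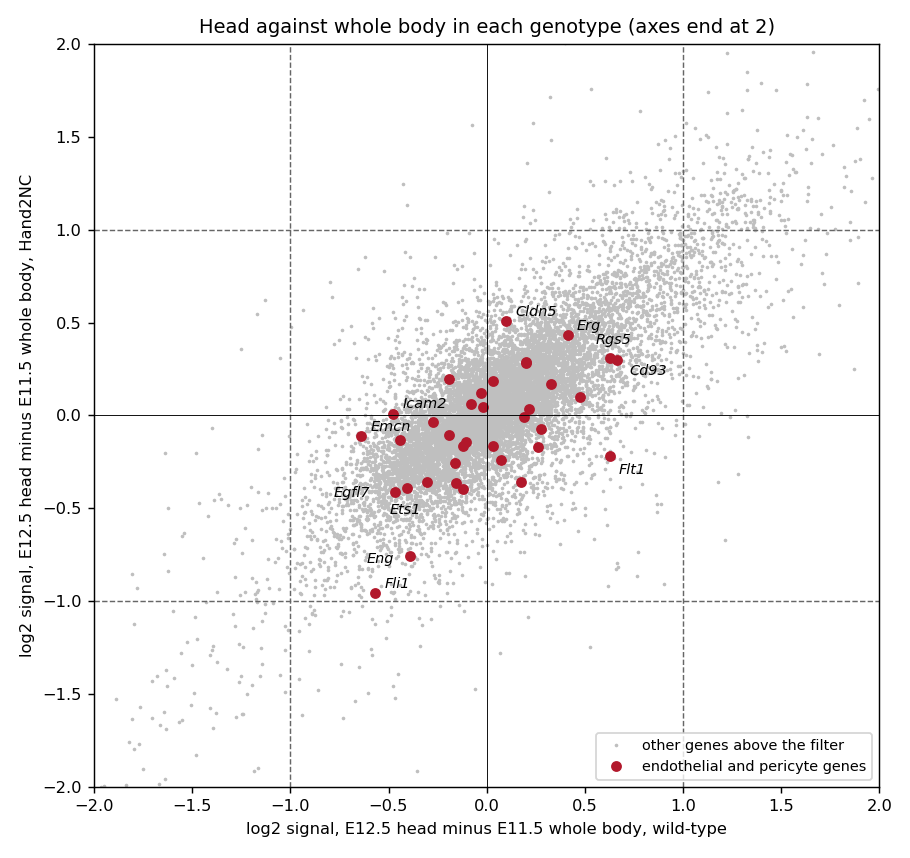
Log2 signal of E12.5 head minus E11.5 whole body in wild-type (x axis) against Hand2NC (y axis), 1 point per gene above the filter in both; red points are 36 endothelial and pericyte genes, grey points all other genes, and dashed lines mark 2-fold. The axes end at 2, beyond which 182 of the 11801 genes lie. *Fli1* is farthest to the lower left at -0.57 and -0.96, *Erg* lies at 0.41 and 0.43, and no red point crosses a dashed line.

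Promoter sequence was searched for ETS, SOX and Hand motifs as a description only, and the part of these motifs in the signals was not tested. The RefSeq promoter table (GRCm38.p6) held 21 promoters for 17 of the 39 genes, each from 250 bases before to 50 bases after a transcription start. The ETS motif CAGGAAG, on either strand, was in 7 of the 21 promoters (33.3%), of *Apln*, *Cd34*, *Egfl7*, *Emcn*, *Erg* and *Rasip1*, against 13.3% of 32851 promoters. The related motif CCGGAAG was in 0 of them, against 8.86%. The SOX motif AACAAT was in 3 (14.3%), of *Emcn*, *Erg* and *Tek*, against 10.7%. The E-box CATCTG, a form that Hand factors bind, was in 4 (19.0%), of *Eng*, *Kdr*, *Rasip1* and *Tie1*, against 17.2%. A match is a description of the letters and not a site. The promoters of *Egfl7* and *Erg*, which differed the same way in both genotypes, and of *Emcn*, the gene with the largest positive difference between genotypes in the heads, are shown up to the base before the start, 5′ to 3′, with ETS matches in capitals.
Egfl7, chr2:26580833-26581082, plus strand: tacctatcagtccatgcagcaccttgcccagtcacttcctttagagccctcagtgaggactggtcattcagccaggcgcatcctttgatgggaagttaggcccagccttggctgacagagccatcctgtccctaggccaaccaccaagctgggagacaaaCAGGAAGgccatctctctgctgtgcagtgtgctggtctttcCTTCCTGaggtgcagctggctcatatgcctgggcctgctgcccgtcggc
Erg, chr16:95459349-95459598, minus strand: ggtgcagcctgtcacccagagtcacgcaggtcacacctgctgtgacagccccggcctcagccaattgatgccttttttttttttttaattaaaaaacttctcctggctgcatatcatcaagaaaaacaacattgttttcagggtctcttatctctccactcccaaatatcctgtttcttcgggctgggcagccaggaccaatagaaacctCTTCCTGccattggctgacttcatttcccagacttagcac
Emcn, chr3:137340828-137341077, plus strand: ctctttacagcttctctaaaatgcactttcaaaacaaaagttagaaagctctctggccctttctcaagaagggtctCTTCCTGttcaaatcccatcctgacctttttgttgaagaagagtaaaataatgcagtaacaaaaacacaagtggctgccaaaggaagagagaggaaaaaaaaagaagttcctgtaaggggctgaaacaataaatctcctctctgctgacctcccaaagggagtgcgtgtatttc
In *Egfl7*, which was lower in the head, the matches begin 90 and 49 bases before the start. A second *Egfl7* promoter, not shown, holds a match 81 bases before its start. In *Erg*, which was higher, the match begins 40 bases before the start, and in *Emcn* 174 bases before it.

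Other genes of vessel formation, given as lists, were examined beside the 39. Those named below that did not reach 2-fold were chosen after their values were seen. Among 8 VEGF ligands and co-receptors with a probe set 0 were past 2-fold in any comparison. *Vegfa* had signals of 515 and 434 at E11.5 and of 442 and 497 at E12.5, and *Vegfc*, a ligand of Flt4, had 719 and 798 at E11.5 and 525 and 565 at E12.5, log2 differences of -0.45 and -0.50 between head and body. Of 11 arterial and venous identity genes above the filter, 0 were past 2-fold, and between head and body 5 were past 1.25-fold higher in the wild-type and 4 in Hand2NC, with 1 and 2 lower. Of all genes, 24.2% and 21.8% were higher and 18.4% and 14.7% lower. Among those higher in both genotypes were *Notch1* (0.61 and 0.71), *Hey2* (0.53 and 0.54), *Hey1* (0.35 and 0.41) and *Notch4* (0.35 and 0.39), all of the Notch pathway and, apart from *Notch4*, with strong expression outside vessels too. Of the venous genes, the transcription factor gene *Nr2f2* had 0.45 and 0.03 and the ephrin receptor gene *Ephb4* -0.03 and -0.53. *Unc5b*, a netrin receptor gene of arterial and tip cells, had -0.51 and -0.37.

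Of the brain endothelium genes, 1 of 6 above the filter in the wild-type and 1 of 7 in Hand2NC was past 2-fold higher in the head, against 4.45% and 2.87% of all genes. *Slco1c1*, the thyroid hormone transporter of the blood-brain barrier and choroid plexus, had signals of 108 and 103 at E11.5 and of 227 and 223 at E12.5, log2 differences of 1.08 and 1.11. The lipid transporter gene *Mfsd2a* had 328 and 317 at E11.5 and 500 and 523 at E12.5, log2 differences of 0.61 and 0.72. *Slc2a1*, the glucose transporter gene, which many tissues express, had 0.04 and -0.00. The list's median over genes above the filter was 0.30 in the wild-type (6 genes) and 0.39 in Hand2NC (7 genes), against 0.03 and 0.04 for all genes.

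Of 8 regulators shared by early blood and endothelium, 3 were past 1.25-fold lower and 1 higher in the head in each genotype, against the same shares of all genes as for the arterial and venous list. *Tal1* had signals of 1237 and 1038 at E11.5 and of 772 and 617 at E12.5, log2 differences of -0.68 and -0.75. *Lmo2* had -0.69 and -0.64, and *Lyl1* had -0.74 and -1.08, past 2-fold in Hand2NC, where 2.24% of all genes were 2-fold lower. The higher one was *Gata2* in the wild-type, at 0.53, and *Klf2* in Hand2NC, at 0.48. Red blood cell genes were lower on the same arrays, as given above, and their part in these values was not tested. Between the genotypes 4 of these 8 genes were higher in Hand2NC and 4 lower at E11.5, and 3 were higher and 5 lower at E12.5. Past 1.25-fold, 1 was higher at E11.5, against 6.61% of all genes, and 3 were lower at E12.5, against 6.64%. *Tal1* had -0.25 at E11.5 and -0.32 at E12.5, *Lyl1* had -0.06 and -0.40, and *Gata2* had 0.01 and -0.39. *Elk3* had 0.36 and 0.02, and *Lmo2* had 0.02 and 0.06.

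Lower signals in the head were also seen for single genes of other vascular lists, and 2.61% of all genes were past 2-fold lower in the wild-type. *Stab2*, a scavenger receptor of liver sinusoids, had signals of 102 and 68.5 at E11.5 and of 28.7 and 30.3 at E12.5, below the array median in the head. *Tbx20*, of the heart, had 166 and 226 at E11.5 and 59.0 and 80.1 at E12.5, also below the array median in the head. The endocardial genes *Nfatc1* and *Npr3* had 0.13 and -0.31 in the wild-type and 0.48 and 0.00 in Hand2NC. Among smooth muscle and pericyte genes, *Tagln* had signals of 1139 and 981 at E11.5 and of 569 and 641 at E12.5. It was past 2-fold lower in the wild-type and at -0.61 in Hand2NC. *Cnn1* went from 106 to 10.9 in the wild-type, the latter below the array median. In Hand2NC, at 60.5 and 19.5, *Cnn1* was not above the filter. *Des* went from 283 to 108 in Hand2NC, a log2 difference of -1.39, and had -0.45 in the wild-type. In Hand2NC 2.24% of all genes were past 2-fold lower. *Abcc9*, for a potassium channel subunit of pericytes, was higher in the head, at 0.66 and 0.62, and its partner *Kcnj8* had -0.18 and 0.27.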

How the data were processed

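Total RNA of each genotype and stage was pooled and hybridised to 1-colour Affymetrix mouse genome arrays. The authors deposited linear intensity values. The submitters' processing notes name MAS5 as the software and give no version. There are 45101 probe sets, of which 64 are controls, and no detection calls were used. The number of arrays, 1 per group, limits the precision. Every column matched a sample.

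Controls were left out. Signals were multiplied on each array so that their 2% trimmed mean was 500, then put on the log2 scale. Names came from the platform annotation, and 0 symbols changed on update through the RefSeq table (GRCm38.p6). Of 45037 probe sets 34945 had 1 symbol, 932 several and 9160 none, and only those with 1 were used. Where a gene had several, the brightest by mean log2 signal across all 4 arrays stood for it. Genes are counted at 2-fold, the study's cutoff, and at 1.25-fold, added after the values were seen. The members and lists were chosen with earlier results of these data known. All 39 members are accounted for. Named with values are those past a cutoff, the 5 largest differences each way between genotypes and defining markers of each role. Of the other lists, some genes past 2-fold are named and the rest only counted. Some genes of those lists are not reported here. The counting was tested on simulated data. Alternatives were no scaling, median centring, quantile normalization, 3 other filters and dim values raised to the array median. Further ones were the mean over probe sets, and dropping the probe sets whose suffix is _a_at, _s_at or _x_at. Tables were computed with pandas 2.3.3 and numpy 2.4.6 under Python 3.11.15, and plots drawn with matplotlib 3.10.9.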

Additional observations from a re-analysis of the deposited data

How the results depend on the processing

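With 1 array per group, differences cannot be separated from variation between pools, and dim probe sets vary most. No paired analysis was possible because each group has 1 array and the labels give no replicate numbers. The count of 0 genes past 2-fold held under all alternatives but the absence of a filter, where it was 1 in the E12.5 heads, 1 between head and body in the wild-type and 1 in Hand2NC, in each case *Gja5* at its dim signals. A 1.25-fold cutoff gave 4, 6, 13 and 10 genes in the 4 comparisons in the order reported. With the brighter array at its 75th percentile, fewer genes were tested, and the counts past 1.25-fold were 2 at E11.5, 2 at E12.5 and 7 between head and body in the wild-type. The count past 1.25-fold the same way in both genotypes went from 5 to 3 with that filter, to 3 with the mean over probe sets and to 3 without ambiguous probe sets. The median of the list between head and body in the wild-type, -0.03, was -0.15 with median centring, -0.13 with quantile normalization and -0.15 with the mean over probe sets. It was 0.10 without the probe sets of those suffixes. For median centring, the wild-type arrays' medians differ by 0.12. Without those suffixes, the genes that dropped out all had negative values, among them *Emcn* at -0.64, *Egfl7* at -0.47 and *Eng* at -0.39. For quantile normalization and the mean over probe sets the cause was not tested. From the mean over its 5 probe sets, 3 of them dim on all arrays, *Cd93* turned to -0.70 between genotypes at E11.5 and to -0.66 between head and body in the wild-type. These 2 were the only genes' values past 1.25-fold that changed sign, and 22 other values of single genes moved by more than the local spread and 1172 by less. The 3 other filters leave a gene's value as it is, so the 1172 include values that could not move. The deposited arrays already had trimmed means close to 500, so leaving out the scaling changes little too. The 1172 are therefore not a measure of how stable the values are.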
